A study of Mus musculus with 34 samples.

Results

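The genes described here are 35 genes of the cardiac sarcomere, its Z-disc and the proteins that build, anchor and degrade it. They were taken by name from a fixed list, and the members were chosen with earlier results of these data known. All 35 were found in both expression tables of the series, among 14552 genes in the first table and 17406 genes in the second, 34 under the listed symbol and Murc as Cavin4. All 35 had a mean of at least 1 CPM (read counts scaled to the size of the library) and were tested, with 12487 genes in the first table and 12555 in the second.

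The sarcomere is the contractile unit of the heart muscle cell. Thick myosin filaments pull on thin actin filaments when calcium binds the troponin complex, the M-band holds the thick filaments in register, titin spans from M-band to Z-disc, and the Z-disc cross-links the thin filaments of neighbouring sarcomeres through alpha-actinin. The Z-disc also carries LIM-domain and stretch-responsive proteins, desmin filaments tie it to the rest of the cell, and muscle ubiquitin ligases mark sarcomere proteins for degradation.

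All samples were left ventricle (LV) RNA of CFW mice, an outbred stock, and the left anterior descending artery was tied off for good to give a myocardial infarction (MI). The first table holds 10 libraries of hearts that received no injection, 3 from sham mice, 3 from hearts 4 h post-MI and 4 from hearts 24 h post-MI, with 1 library per mouse. Per the study's methods, the tissue sequenced came from the ischemic area, and from a matching area in sham hearts. The control mice are sham operated by their titles, whereas another label gives no operation. The second table holds 24 libraries, 2 from sham-operated mice and the rest from infarcted hearts whose border zone was injected straight after ligation with a modified mRNA (modRNA) labelled Luc, the luciferase control, or AC, whose sequence is not given in the labels. Luc and AC hearts number 4 and 4 at 4 h, 3 and 3 at 24 h, and 4 and 4 at 48 h. The 2 sham libraries of this table are labelled 4 h, so its 24 and 48 h hearts have no sham of their own time. The tables were normalized separately, so every test was made within a table, and the labels do not say whether each library of the second table came from its own mouse.

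The libraries carried cardiac muscle RNA. The 13 marker genes of cardiomyocytes outside the sarcomere, such as Ryr2, Atp2a2 and Mb, summed to between 34104 and 37939 CPM in the sham libraries of the first table, and skeletal muscle markers summed to at most 6.17 CPM in any library. With the lowest listed value of a library taken as 1 read, the first table rests on an estimated 12553518 to 18952669 reads per library. On that basis 1 read is worth between 0.0313 and 0.0479 CPM. The study's methods state a higher mean number of reads per sample, and the depth of the second table is unknown. All genes of a library summed to between 508204 and 818455 CPM in the second table, so its sums of CPM are not shares of a library. Titles number the sham and 4 h libraries of the second table in 1 run and its 48 h libraries in another. Its 24 h libraries have no such number, and their titles alone carry the letters Br, whose meaning is not given. A difference of the 24 and 48 h hearts from sham therefore cannot be told apart from a difference between these sets or in time since surgery. AC and Luc were compared within a set. RNA of bulk tissue cannot tell fewer cardiomyocytes from less RNA per cardiomyocyte.

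In sham hearts of the first table, per kilobase of transcript, the light chain Myl2 stood highest at 5758 CPM per kb. Tnnt2 followed at 4153 CPM per kb, Myl3 at 2963, Tnni3 at 2764, Tnnc1 at 1997 and Tpm1 at 1823 CPM per kb. At the other end stood the myosin heavy chain Myh7b at 11.9 CPM per kb, titin (Ttn) at 12.0 and Myot at 13.2. Together the 35 genes made up between 6.06% and 6.75% of all CPM in the sham libraries. Reads of 50 bases were long enough to place nearly all of these transcripts, as 30 of the 35 shared no window of 50 bases with any other annotated gene and the highest share was 3.57% in Tmod1.

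RefSeq promoters (GRCm38.p6, 250 bases before to 50 after an annotated start) were listed for 30 of the 35 genes, with 42 promoters in all. The binding motif of MEF2, a transcription factor of muscle structural genes, was searched on both strands and was found in 6 of these 42 promoters (14.3%) and in 3.19% of all 32851 promoters. The CArG box of serum response factor was found in 16.7% and 1.63%, the MCAT letters CATTCC in 26.2% and 14.7%, and TATAAA in 16.7% and 13.6%, in the same order, with no test made. Some genes had more than 1 promoter, with overlapping windows in Ldb3, and the CArG matches lay in 5 of the 30 genes. The letters of the E-box, CANNTG, stood in 83.3% of the members' promoters and 72.3% of all, and those of a heat shock element, GAANNTTC, in 2.38% and 7.86%. A CArG match can share bases with a TATA-like stretch, and no match says only that the letters are not in this window. Of the 6 MEF2 matches, 5 are shown with the flanking bases, as examples of the motif in genes whose levels are described here. Each stretch has 30 bases and is written 5′ to 3′ on the strand of the gene, with the MEF2 match in capitals.
Fhl2, chr1:43196773-43196802 (-), 31 bases before the start: tggacatgccTTATTTATAActctgctgac
Mybpc3, chr2:91118044-91118073 (+), 90 bases before the start: tggaatttgtCTATATTTAGcaggtggcta
Synpo2l, chr14:20664699-20664728 (-), 144 bases before the start: tggctcaggtTTATTTTTAGccaggcagac
Synpo2l, chr14:20668444-20668473 (-), 109 bases before the start: gaaatttgtaCTATAATTAGttctaggagt
Ttn, chr2:76982694-76982723 (-), 166 bases before the start: ttctgaaaggCTAAATTTAGcactgccaat

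The first comparison asks how the sarcomere transcripts stood 4 h post-MI in uninjected hearts. None of the 35 genes passed the test at 4 h compared to sham (limma on log2(CPM + 1), q value under 0.05), beside 1.55% of all genes tested called higher and 0.817% called lower. Trim63 and Myoz2 alone, 2 of the 35, had an unadjusted p under 0.05, as did 2058 of all 12487 genes tested. The median log2 fold change of the members was 0.02, with a range from -0.40 to 0.47, and that of all genes was -0.03. Troponin T (Tnnt2), which anchors the troponin complex on tropomyosin, stood at 4797, 5277 and 4876 CPM in the sham libraries D, H and I and at 4958, 5420 and 5080 CPM in the 4 h libraries C, D and E. These groups overlapped, and the log2 fold change was 0.05 (standard error, SE, 0.19, q = 0.933). The ligase Trim63 stood at 145, 156 and 134 CPM in sham and at 200, 182 and 178 CPM at 4 h, with no overlap, a log2 fold change of 0.36 (SE 0.10) and q = 0.115. Of all 12487 genes tested, 1355 stood higher and 2244 lower at 4 h without overlap. With array weights, which give noisier libraries less weight, 3 members were called, with q = 0.0126 for Trim63, 0.0105 for Myoz2 and 0.0175 for Jph2, which was lower. Myoz2 had q = 0.0369 without sham library D, in which it stood at 714 CPM against 437 and 468 CPM in the other sham libraries. Without sham library D no other member was called. Of the other genes chosen by name, Ttn had a log2 fold change of -0.23 (q = 0.759), Myl2 of 0.20 (q = 0.673) and Actn2 of 0.03 (q = 0.963). Des had 0.22 (q = 0.594), Csrp3 0.26 (q = 0.700), Cryab 0.10 (q = 0.868), Fbxo32 -0.24 (q = 0.607) and Actn4 0.17 (q = 0.473).

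At 24 h post-MI members had moved in both directions. Of the 35 members, 9 were higher than sham and 18 lower (q value under 0.05), while 8 did not pass the test. Over all genes tested, 35.6% were called higher and 30.3% lower. The members' log2 fold changes ran from -2.86 to 2.96 with a median of -0.62, and the median over all genes was 0.04. In 8 members every 24 h library stood above every sham library, and in 17 every 24 h library stood below, where the same held for 35.3% and 28.7% of all genes tested. The 9 genes that rose included 4 Z-disc genes and Des, and those that fell included all 3 titin and M-band genes, 3 of 5 thick filament genes and both ubiquitin ligases. Library G stood nearest to the sham libraries among the 24 h libraries in several of the genes that fell. With each library left out in turn, between 24 and 28 members were called.

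**Figure D1:**
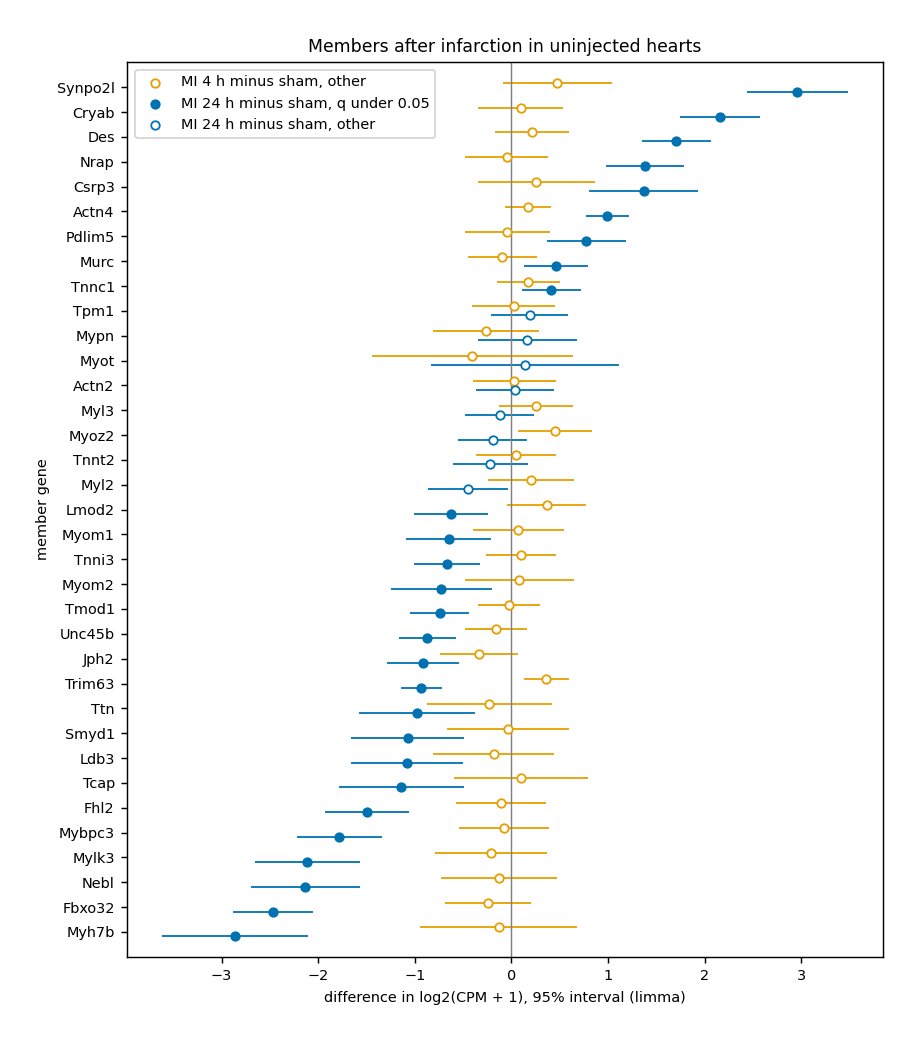
Difference of each member from sham in log2(CPM + 1) in uninjected hearts 4 h (orange) and 24 h (blue) post-MI, with 95% intervals from limma and filled points where the q value was under 0.05. No point at 4 h is filled, whereas at 24 h 9 members lie above 0 and 18 below, from Synpo2l at 2.96 to Myh7b at -2.86.

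Among the thin filament genes, 1 of 6 rose and 3 fell at 24 h. This count and those of the other roles below stand beside 35.6% of all genes tested called higher and 30.3% called lower. Tnni3, the inhibitory troponin subunit, stood at 2510, 2604 and 2447 CPM in sham and at 1286, 1604, 1891 and 1616 CPM in the 24 h libraries C, D, G and H. All 24 h libraries were lower, with a log2 fold change of -0.67 (SE 0.16, q = 0.00273). The pointed-end proteins Tmod1, which caps the thin filament, and Lmod2, which lengthens it, had log2 fold changes of -0.74 (q = 0.000631) and -0.62 (q = 0.00842). Tnnc1, the calcium-binding subunit, stood at 1488, 1458 and 1375 CPM in sham and at 1639, 1954, 1906 and 2212 CPM at 24 h. It was higher in every 24 h library, with a log2 fold change of 0.41 (SE 0.14, q = 0.0209), but q was 0.0593 without 24 h library H, 0.0528 without sham library H and 0.0719 without sham library I. Tnnt2 stood at 3486, 4769, 4591 and 4410 CPM at 24 h, below all sham libraries, with a log2 fold change of -0.22 (SE 0.18, q = 0.292). Tropomyosin (Tpm1), with the highest mean CPM of the 35 in the sham libraries of this table, gave 0.19 (q = 0.374). The 3 troponin subunits ran from -0.67 in Tnni3 to 0.41 in Tnnc1, and differences between them were not tested.

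Of the thick filament genes, 3 of 5 fell and none rose. Myh7b (chr2:155611243-155634308, + strand, mm10), a myosin heavy chain of slow and cardiac muscle, stood at 53.8, 93.5 and 72.9 CPM in sham and at 5.44, 14.9, 12.6 and 6.16 CPM at 24 h. Its log2 fold change was -2.86 (SE 0.34, q = 2.71e-05), the lowest of the 35 genes. Mybpc3, the cardiac myosin-binding protein C, stood at 2115, 2676 and 2515 CPM in sham and at 589, 665, 1040 and 606 CPM at 24 h. All 24 h libraries were lower, with a log2 fold change of -1.78 (SE 0.20, q = 1.56e-05). Mylk3, the cardiac kinase that phosphorylates the regulatory light chain, stood at 338, 404 and 432 CPM in sham and at 71.4, 77.9, 161 and 70.6 CPM at 24 h, a log2 fold change of -2.11 (SE 0.25, q = 2.23e-05). In Mybpc3 and Mylk3 library G was the highest of the 24 h libraries. Its substrate Myl2, the ventricular regulatory light chain, stood at 5072, 4991 and 5293 CPM in sham and at 3038, 3678, 4314 and 4094 CPM at 24 h. Every 24 h library was lower, with a log2 fold change of -0.45 (SE 0.19, q = 0.0540), and q was 0.0260 without library G. The essential light chain Myl3 had a log2 fold change of -0.12 (q = 0.523). Myh7b overlaps Trpc4ap on the opposite strand (mean 86.4 CPM in the first table), and whether the counting used the strand of a read is not given in the sources used here.

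All 3 titin and M-band genes fell. Ttn, the spring that spans from Z-disc to M-band, stood at 1287, 1203 and 1359 CPM in sham and at 442, 564, 1226 and 592 CPM at 24 h. Library G lay within the sham range and the others at or below 592 CPM, with a log2 fold change of -0.97 (SE 0.27, q = 0.00836). The myomesins Myom1 and Myom2, which cross-link thick filaments at the M-band, had log2 fold changes of -0.65 (q = 0.0130) and -0.73 (q = 0.0190). The q value of Myom2 was 0.0541 without 24 h library H, 0.0531 without sham library H and 0.0978 without sham library I.

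Of the 12 Z-disc genes, 4 were higher and 4 lower, near the 35.6% and 30.3% of all genes tested. Synpo2l (chr14:20658948-20668355, - strand, mm10), an actin- and alpha-actinin-binding Z-disc protein, rose most of all members. It stood at 110, 139 and 113 CPM in sham and at 689, 977, 1024 and 1136 CPM at 24 h, a log2 fold change of 2.96 (SE 0.24, q = 1.77e-06) and a ratio of means of 7.93. Nrap, which takes part in myofibril assembly, stood at 434, 572 and 493 CPM in sham and at 955, 1231, 1626 and 1489 CPM at 24 h, a log2 fold change of 1.39 (SE 0.18, q = 5.32e-05). Csrp3, the muscle LIM protein, stood at 793, 651 and 658 CPM in sham and at 1404, 1167, 2419 and 2664 CPM at 24 h. All 24 h libraries were higher, in a lower pair (C and D) and a higher pair (G and H), with a log2 fold change of 1.37 (SE 0.26, q = 0.000690). The LIM protein Pdlim5 had 0.77 (q = 0.00338).

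The Z-disc genes that fell were Nebl, Fhl2, Tcap and Ldb3. Nebulette (Nebl), an actin-binding Z-disc protein, stood at 93.6, 109 and 99.2 CPM in sham and at 16.6, 16.4, 41.4 and 20.9 CPM at 24 h, a log2 fold change of -2.13 (SE 0.26, q = 2.70e-05). Fhl2, a LIM protein that binds titin, had a log2 fold change of -1.50 (q = 5.47e-05), Tcap, which joins the ends of titin in the Z-disc, -1.14 (q = 0.00514), and Ldb3, which binds alpha-actinin, -1.08 (q = 0.00380). Actn2, the sarcomeric alpha-actinin itself, stood at 1148, 1264 and 1018 CPM in sham and at 857, 1239, 1551 and 1145 CPM at 24 h. These groups overlapped, with a log2 fold change of 0.04 (SE 0.18, q = 0.853). Myoz2 (-0.19), Myot (0.14) and Mypn (0.17) did not pass the test either, with q values from 0.308 to 0.789.

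Of the intermediate filament, chaperone and assembly genes, 2 rose and 2 fell. Cryab (chr9:50751325-50756636, + strand, mm10), a small heat shock protein that binds desmin and titin, stood at 1033, 1086 and 1101 CPM in sham and at 4862, 3955, 4066 and 6747 CPM at 24 h. Its log2 fold change was 2.16 (SE 0.19, q = 2.79e-06), a ratio of means of 4.57. Desmin (Des), the muscle intermediate filament, stood at 1127, 846 and 807 CPM in sham and at 2841, 2581, 3117 and 3531 CPM at 24 h, a log2 fold change of 1.71 (SE 0.16, q = 4.98e-06). Both were higher in every 24 h library. Smyd1, a methyltransferase needed for myofibril assembly, and Unc45b, a myosin chaperone, had log2 fold changes of -1.08 (q = 0.00416) and -0.87 (q = 0.000171). Cryab overlaps Hspb2 on the opposite strand, whose mean in the first table was 57.6 CPM.

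Both ubiquitin ligases fell at 24 h. Fbxo32 (chr15:58175879-58214893, - strand, mm10), the muscle F-box ligase subunit, stood at 151, 130 and 168 CPM in sham and at 22.6, 31.8, 32.6 and 19.5 CPM at 24 h, a log2 fold change of -2.47 (SE 0.19, q = 1.22e-06). Trim63, a RING ligase of the sarcomere, stood at 71.1, 81.3, 80.4 and 69.3 CPM at 24 h, a log2 fold change of -0.93 (SE 0.10, q = 9.80e-06). Every 24 h library was below every sham library in both. Of the membrane-linked genes, Jph2, which couples the transverse tubules to the sarcoplasmic reticulum, had -0.91 (q = 0.000622), and Murc, a muscle protein of caveolae, 0.46 (q = 0.0186), with overlap between its groups. The q value of Murc was 0.0503 without 24 h library H and 0.0943 without sham library I. The non-muscle alpha-actinin Actn4 stood at 87.1, 86.3 and 80.0 CPM in sham and at 171, 162, 190 and 154 CPM at 24 h, a log2 fold change of 0.99 (SE 0.10, q = 8.03e-06), beside 0.04 for its sarcomeric relative Actn2.

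**Figure D2:**
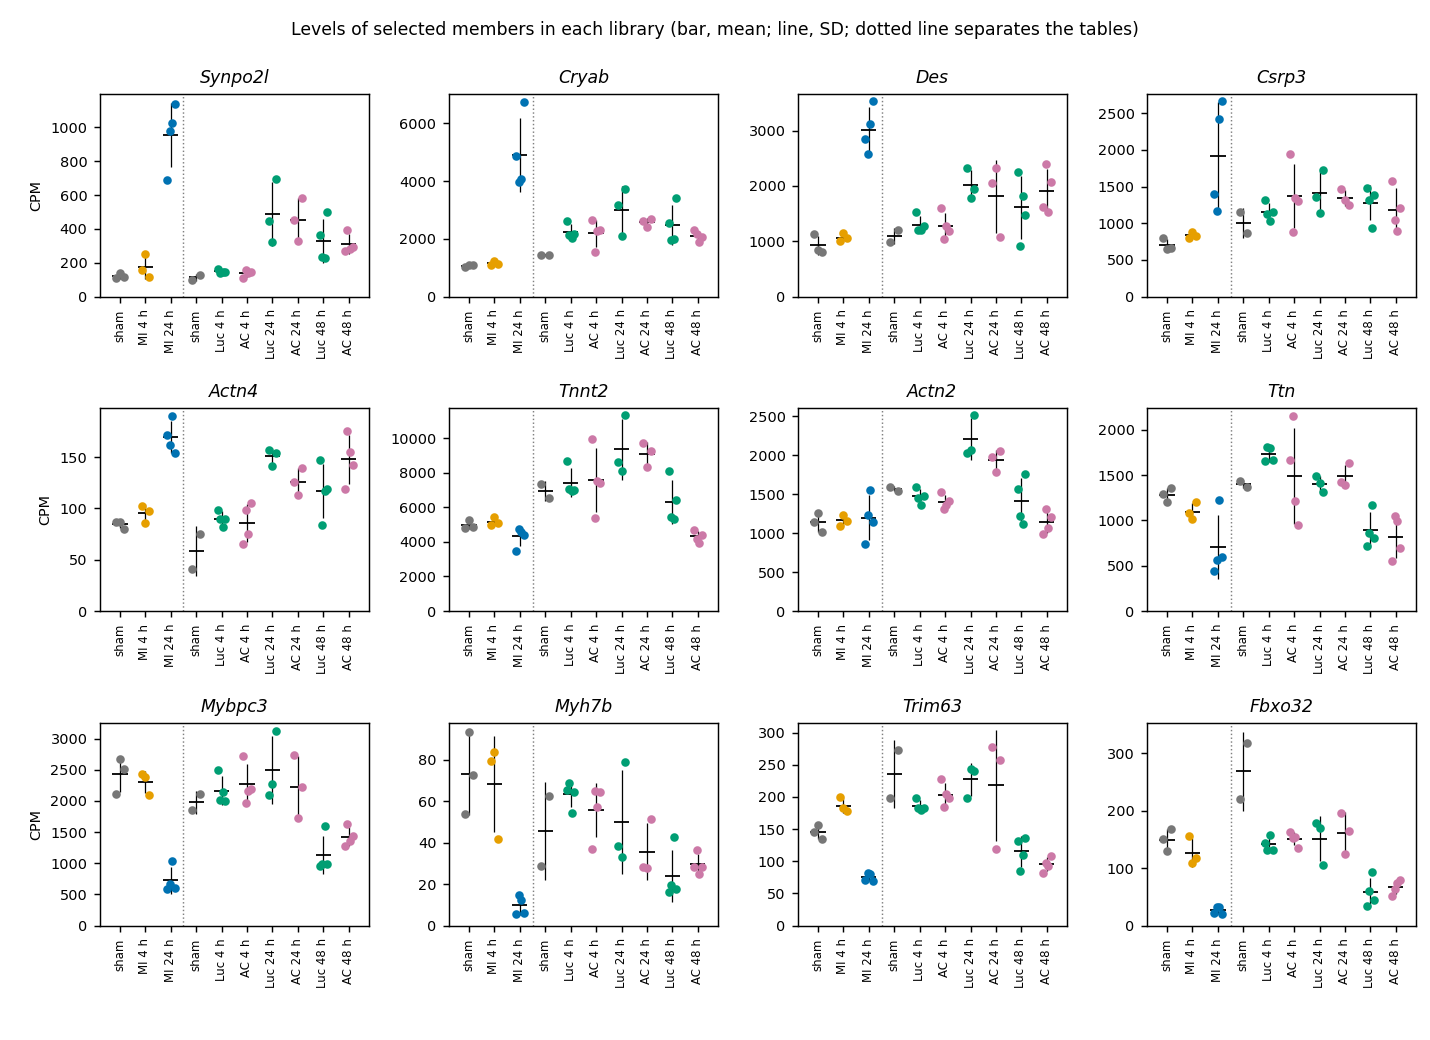
CPM of 12 members in every library, each point 1 library, horizontal bars the group means and vertical lines the SD; the dotted line separates the tables, which were normalized separately. In uninjected hearts at 24 h Synpo2l, Cryab, Des, Csrp3 and Actn4 lie above every sham point and Mybpc3, Myh7b, Trim63 and Fbxo32 below, while the points of Actn2 overlap.

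Compared directly with 4 h, with the same 24 h libraries as above, 8 members were higher and 20 lower at 24 h in uninjected hearts, beside 37.2% and 26.7% of all genes tested. The members' median log2 fold change was -0.65, against 0.10 over all genes. Myl2 gave -0.65 (SE 0.19, q = 0.0101) and Myoz2, a calcineurin-binding Z-disc protein, -0.65 (SE 0.16, q = 0.00468). Trim63, at 178 to 200 CPM at 4 h, gave -1.30 (SE 0.10, q = 1.80e-06). Synpo2l, at 117 to 253 CPM at 4 h, gave 2.49 (SE 0.24, q = 7.71e-06). The values of Tnnt2 were -0.27 (q = 0.205), of Actn2 0.01 (q = 0.960), of Des 1.49 (q = 1.69e-05) and of Csrp3 1.11 (q = 0.00296). Cryab gave 2.06 (q = 5.40e-06), Nrap 1.43 (q = 4.89e-05), Actn4 0.82 (q = 3.77e-05) and Pdlim5 0.82 (q = 0.00260). The 5 lowest values were -2.73 in Myh7b (q = 4.53e-05), -2.23 in Fbxo32 (q = 3.36e-06), -2.01 in Nebl (q = 4.95e-05), -1.90 in Mylk3 (q = 5.74e-05) and -1.71 in Mybpc3 (q = 2.66e-05). The fall of Ttn, -0.75 (SE 0.27, q = 0.0324), passed the test with library G left out but not with any other single library of these groups left out, when q lay between 0.0549 and 0.0985. Without 4 h library E, Myl2 had q = 0.0544.

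The summed CPM of the 35 genes at 24 h spanned the sham range, although 27 of them were called. It ranged from 37876 to 40449 CPM in sham libraries, from 39326 to 42329 CPM at 4 h and from 33793 to 46285 CPM at 24 h. Without Cryab and Des, a pair picked after their values were seen, it was 35969 to 38518 CPM in sham and 26089 to 39102 CPM at 24 h. The 13 cardiomyocyte genes outside the sarcomere summed to 34104 to 37939 CPM in sham and to 12898 to 20549 CPM at 24 h, and 12 of the 13 fell, with a median log2 fold change of -0.68. All 10 neutrophil and monocyte markers rose, from a sum of 60.8 to 123 CPM in sham to 617 to 2573 CPM at 24 h. Their part in the members' changes was not tested. Transcript length moved with the groups too. The median of genes with transcripts over 6000 bases minus that of genes under 2000 bases, each relative to the gene's mean over the table, was between 0.10 and 0.31 on the log2 scale in sham libraries, between -0.05 and -0.02 at 4 h, and between -0.26 and 0.09 at 24 h. With this trend removed, an alternative added after the data were seen, 27 members were again called, 8 higher and 19 lower, of which 26 were called before. Without the trend Tnnc1 had a log2 fold change of 0.19 (q = 0.197), and Myl2 of -0.63 (q = 0.0109).

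**Figure D3:**
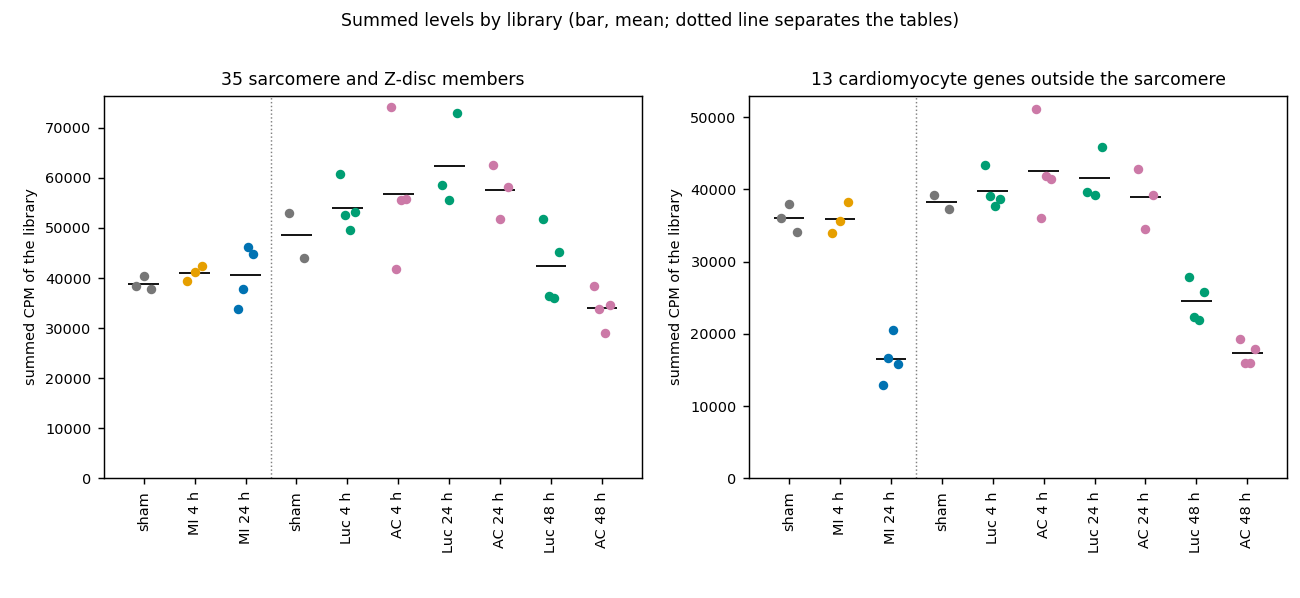
Summed CPM of the 35 members (left) and of 13 cardiomyocyte marker genes outside the sarcomere (right) in every library, each point 1 library and bars the group means; the dotted line separates the tables. At 24 h in uninjected hearts the members' sum spans 33793 to 46285 CPM, around the sham range, whereas the other cardiomyocyte genes lie at 12898 to 20549 CPM, below every sham library.

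A further 38 genes of the sarcomere and Z-disc were listed and 36 tested. At 24 h, 22 of 36 were higher and 11 lower, beside 35.6% and 30.3% of all genes tested. Their median log2 fold change was 0.67. The highest were Ankrd2, a stretch-responsive ankyrin repeat protein of the Z-disc region, at 6.62 (q = 3.02e-07), the small heat shock protein Hspb1 at 4.37 (q = 6.55e-08) and the LIM protein Fhl1 at 4.01 (q = 1.69e-07). The lowest were the Z-disc and costamere protein Cmya5 at -2.59 (q = 1.21e-05), the leiomodin Lmod3 at -2.03 (q = 1.93e-05) and the cardiac myosin heavy chain Myh6 at -1.77 (q = 0.000149). At 4 h, Xirp1, an actin-binding protein of the intercalated disc, and Hspb1 were called, with log2 fold changes of 1.57 (q = 0.00108) and 1.12 (q = 0.0194).

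The second table asks the same of hearts injected with Luc or AC modRNA, with 2 sham libraries. At 4 h no member passed the test in Luc hearts compared to sham, beside 1.25% of all genes called higher and 0.295% lower. An unadjusted p under 0.05 was found in 3 members and in 1710 of all 12555 genes tested. Fbxo32 stood at 220 and 317 CPM in sham libraries 1 and 2 and at 144, 132, 157 and 132 CPM in the Luc libraries 1 to 4, without overlap, a log2 fold change of -0.90 (SE 0.28, q = 0.125). Actn4, at 41.2 and 75.4 CPM in sham and 98.7, 90.1, 81.4 and 89.9 CPM in Luc hearts, gave 0.68 (SE 0.23, q = 0.159). Cryab, at 1452 and 1423 CPM in sham and 2619, 2147, 2020 and 2181 CPM in Luc hearts, gave 0.63 (SE 0.23, q = 0.202). The groups did not overlap in these 3 genes. Of all 12555 genes tested, 2158 stood higher and 1922 lower in Luc hearts without overlap. In a model of these 2 groups alone, q was 0.0103 for Fbxo32 and 0.0332 for Cryab. Without sham library 2, Actn4 had q = 0.0286. The log2 fold change was 0.09 for Tnnt2 (q = 0.883), 0.30 for Ttn (q = 0.629), 0.26 for Myl2 (q = 0.728) and -0.09 for Actn2 (q = 0.843). It was 0.25 for Des (q = 0.743), 0.21 for Csrp3 (q = 0.748) and -0.32 for Trim63 (q = 0.575).

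At 24 h, 7 members were higher in Luc hearts than in sham and 1 was lower, beside 25.3% and 8.79% of all genes tested. The members' median log2 fold change was 0.21, against 0.16 over all genes. Synpo2l stood at 100 and 127 CPM in sham and at 447, 322 and 695 CPM in the Luc libraries A, C and D, a log2 fold change of 2.03 (SE 0.31, q = 3.74e-05). Actn4 stood at 156, 142 and 154 CPM, a log2 fold change of 1.42 (SE 0.24, q = 0.000129). Nrap stood at 395 and 591 CPM in sham and at 1126, 967 and 1401 CPM, a log2 fold change of 1.25 (SE 0.26, q = 0.000822). In these genes and in Cryab, with 1.02 (q = 0.00274), all Luc libraries were higher, and q stayed under 0.05 with each library left out. Myotilin (Myot), a Z-disc protein that bundles actin, gave 1.24 (q = 0.0142), Des 0.88 (q = 0.0333), Actn2 0.48 (q = 0.0353) and Fbxo32 -0.84 (q = 0.0335). The call of Des was lost without any library but C. Without Luc library D, Actn2, Myot, Des and Fbxo32 were not called, with q values from 0.0518 to 0.155. Without sham library 1, Actn2, Des and Fbxo32 were not called, with q values from 0.0537 to 0.223, and without sham library 2 the q values of Actn2, Myot, Des and Fbxo32 ran from 0.0583 to 0.252. With median-ratio scaling, which sets the median log2 fold change of all genes near 0, 5 members were higher and 4 lower, and all genes divided into 2294 higher and 2047 lower in place of 3172 and 1103. The values of Tnnt2 were 0.41 (q = 0.152), of Ttn -0.0011 (q = 0.998), of Myl2 0.02 (q = 0.965), of Csrp3 0.48 (q = 0.174) and of Trim63 -0.04 (q = 0.918).

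Several genes that fell in uninjected hearts at 24 h did not pass the test in Luc hearts. Mybpc3, at 1851 and 2106 CPM in sham, stood at 2103, 2269 and 3126 CPM in Luc hearts at 24 h, a log2 fold change of 0.32 (q = 0.285) beside -1.78 in uninjected hearts. The same pair of values was 0.13 (q = 0.826) and -2.86 for Myh7b. For Nebl it was -0.80 (q = 0.0911) and -2.13, but Nebl was called lower in Luc hearts with the compared groups alone (q = 0.0303), with median-ratio scaling (q = 0.0428) and with the length trend removed (q = 0.0475). With median-ratio scaling Mylk3 (q = 0.0105) and Smyd1 (q = 0.0191) were also called lower in Luc hearts. With the replicate block Myh7b was called higher (log2 fold change 1.05, q = 0.0405). The difference between the tables was not tested, as they were normalized separately. The neutrophil and monocyte markers summed to 84.4 and 162 CPM in the sham libraries of the second table and to 123 to 207 CPM in Luc hearts at 24 h, with 7 of 10 called higher and a median log2 fold change of 1.58. The sums of the groups overlapped. In the same hearts the 13 cardiomyocyte genes outside the sarcomere summed to 37360 and 39194 CPM in sham and 39247 to 45921 CPM in Luc hearts, with 3 higher and 3 lower. All genes together summed to 619752 and 628938 CPM in sham and to 730630 to 818456 CPM in these Luc hearts. The higher sum of the 13 genes is therefore not a higher share of the library. All 4 atrial markers were higher in Luc hearts at 24 h. The atrial light chain Myl7 stood at 0.0326 and 0.0952 CPM in sham and at 17.0 to 61.3 CPM in Luc and 9.05 to 112 CPM in AC hearts at 24 h. Their part in the members' values was not tested.

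At 48 h, 4 members were higher and 9 lower in Luc hearts than in sham, beside 13.7% and 16.4% of all genes tested. The members' median log2 fold change was -0.27, against -0.03 over all genes. Fbxo32 stood at 33.3, 59.9, 44.9 and 92.8 CPM in the Luc libraries, all below sham, a log2 fold change of -2.28 (SE 0.28, q = 6.21e-06). Trim63 stood at 199 and 273 CPM in sham and at 132, 84.4, 137 and 110 CPM in Luc hearts, a log2 fold change of -1.03 (SE 0.24, q = 0.00290). Lmod2 gave -0.86 (q = 0.00723), Mybpc3 -0.84 (q = 0.00507), Unc45b -0.80 (q = 0.00878), Mylk3 -0.62 (q = 0.0247), Tmod1 -0.59 (q = 0.00492), Smyd1 -0.55 (q = 0.0179) and Ldb3 -0.47 (q = 0.0183). Synpo2l stood at 361, 231, 499 and 228 CPM, above sham in every library, a log2 fold change of 1.46 (SE 0.29, q = 0.000735). Actn4 gave 1.02 (q = 0.00180), Pdlim5 0.81 (q = 0.00511) and Cryab 0.74 (q = 0.0174). The calls of Fbxo32 and Synpo2l held with each library left out, whereas without sham library 2 only 5 members were called. In a model of these 2 groups alone the number was 4. The values that missed the threshold were -0.16 for Tnnt2 (q = 0.600), -0.68 for Ttn (q = 0.0505), -0.69 for Myl2 (q = 0.0796) and -0.17 for Actn2 (q = 0.458). They were 0.49 for Des (q = 0.224) and 0.34 for Csrp3 (q = 0.329). The 13 cardiomyocyte genes outside the sarcomere summed to 21882 to 27892 CPM in Luc hearts at 48 h, with 6 of 13 lower, and 9 of 10 neutrophil and monocyte markers were higher. Of the atrial markers, 3 of 4 were higher, with a median log2 fold change of 2.68, and of the fibroblast markers 3 of 7. Their part in the members' values was not tested.

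**Figure D4:**
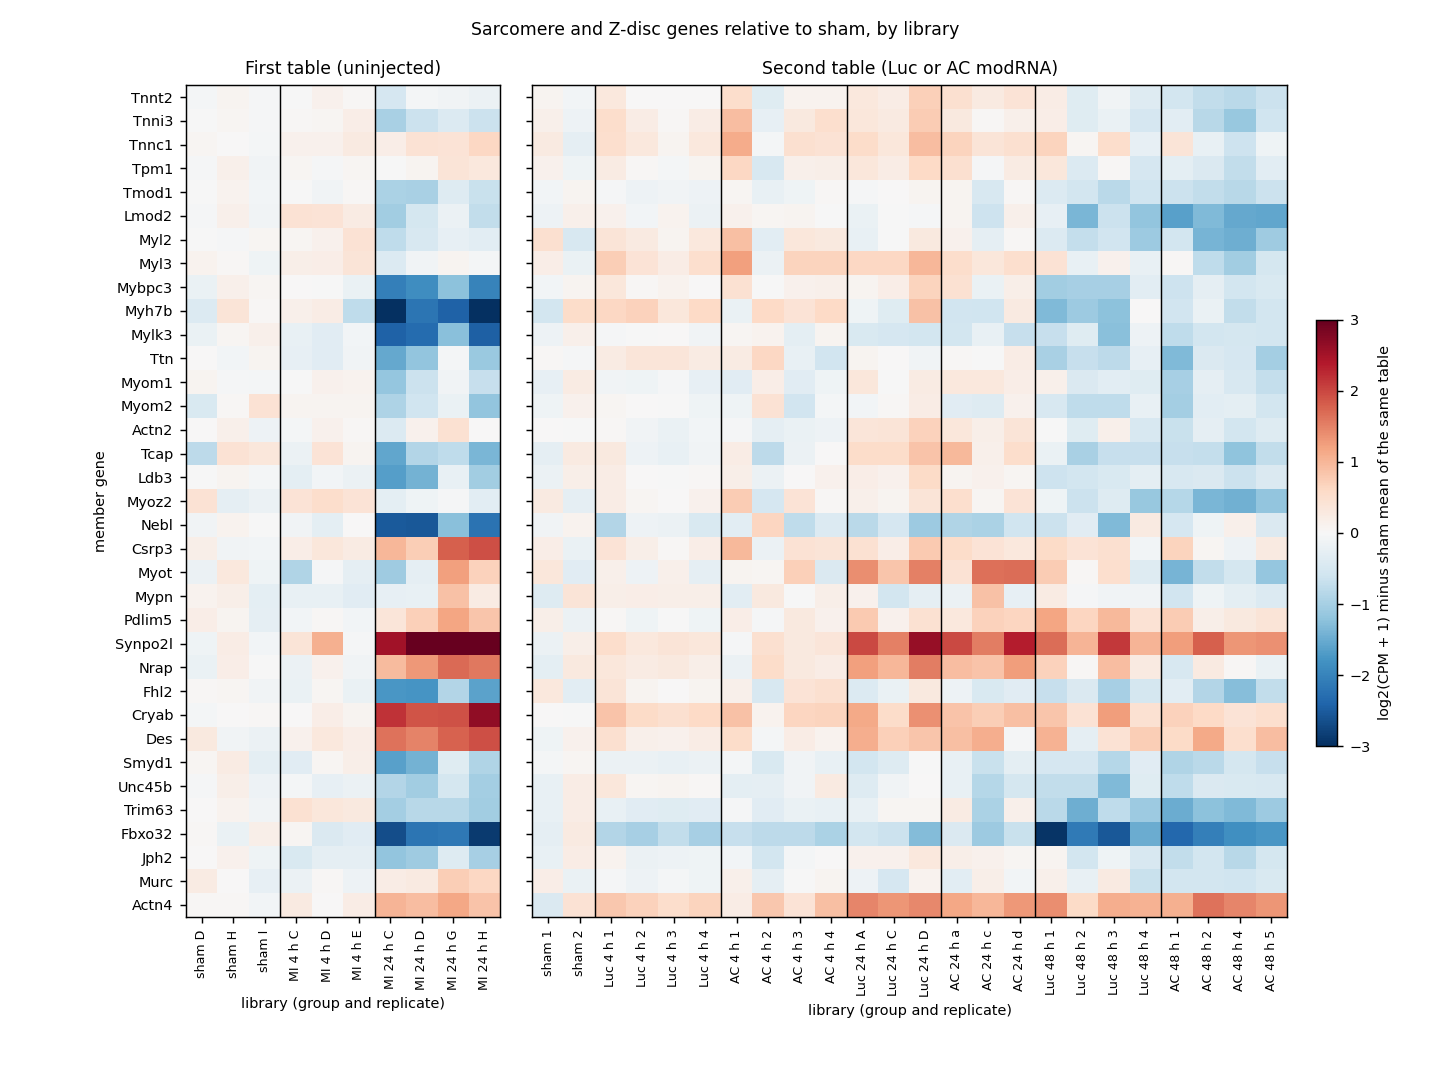
Difference of each member (rows, grouped by role) in each library (columns) from the sham mean of the same table, in log2(CPM + 1), with red above sham, blue below and colour capped at 3 on either side. Synpo2l and Actn4 are red in every MI library at 24 h and later, Fbxo32 is deep blue in uninjected hearts at 24 h and in all hearts at 48 h, and Mybpc3, Myh7b and Nebl are blue in every uninjected library at 24 h.

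The last comparison asks whether AC hearts differed from Luc hearts at the same time. At 4 h and at 24 h no member passed the test and none had an unadjusted p under 0.05. Over all genes 0.00796% were called higher and 0% lower at each of these times. The members' log2 differences (AC minus Luc) lay between -0.28 and 0.21 at 4 h and between -0.43 and 0.38 at 24 h, and their 95% intervals reached from -0.83 to 0.78 and from -1.15 to 0.89. For Tnnt2 the interval ran from -0.35 to 0.36 at 4 h and from -0.43 to 0.38 at 24 h. For Cryab it ran from -0.44 to 0.33 and from -0.63 to 0.27, and for Fbxo32 from -0.38 to 0.57 and from -0.44 to 0.66. Differences within these intervals are not excluded by the data. For Ttn it ran from -0.72 to 0.15 and from -0.43 to 0.58. Ttn stood at 1662, 2148, 1209 and 944 CPM in AC libraries 1 to 4, against 1652 to 1809 CPM in Luc hearts. The AC libraries thus spread on both sides of the Luc libraries. The length trend of AC libraries 1 to 4 was -0.83, 0.65, -0.39 and -0.30 on the log2 scale, and its part in the Ttn values was not tested. Of the other genes chosen by name, the log2 differences at 4 h and 24 h were 0.04 and -0.05 for Myl2, -0.07 and -0.18 for Actn2, -0.04 and -0.22 for Des, 0.19 and -0.05 for Csrp3, 0.12 and -0.15 for Trim63, and -0.09 and -0.26 for Actn4.

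At 48 h, 3 members were lower in AC than in Luc hearts and none was higher, beside 3.27% and 12.1% of all genes tested. The members' median log2 difference was -0.20, whereas that of all genes was 0.14. Myot stood at 57.8, 34.8, 48.3 and 25.5 CPM in the Luc libraries 1 to 4 and at 12.1, 20.0, 22.9 and 14.5 CPM in the AC libraries 1, 2, 4 and 5. All AC libraries were lower, with a log2 difference of -1.19 (SE 0.29, q = 0.00947), and q stayed under 0.05 with each library left out. Lmod2 stood at 736, 339, 559 and 387 CPM in Luc and 283, 349, 302 and 298 CPM in AC hearts, overlapping through Luc library 2, with a log2 difference of -0.65 (SE 0.19, q = 0.0236). Tnnt2 stood at 8105, 5428, 6424 and 5302 CPM in Luc and 4704, 4174, 3953 and 4423 CPM in AC hearts, with no overlap and a log2 difference of -0.53 (SE 0.17, q = 0.0379). The call of Tnnt2 was lost in 5 of 8 fits with a library left out, and that of Lmod2 in 5 of 8. The values of the other genes chosen by name were -0.14 for Ttn (q = 0.692), -0.42 for Myl2 (q = 0.243), -0.29 for Actn2 (q = 0.143) and -0.13 for Csrp3 (q = 0.717). They were -0.20 for Cryab (q = 0.506), -0.26 for Trim63 (q = 0.398), 0.29 for Fbxo32 (q = 0.427), 0.30 for Des (q = 0.435) and 0.35 for Actn4 (q = 0.199). A total of 13 members had an unadjusted p under 0.05, where 1516 of all 12555 genes tested were called higher and 410 lower after adjustment.

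The count at 48 h depended on scaling and on single libraries. With median-ratio scaling, which moved the median log2 difference of all genes from 0.14 to 0.0027, 12 members were lower and none higher, and all genes divided into 823 higher and 802 lower in place of 1516 and 410. Without Luc library 4 it was 10 members, 9 lower and 1, Mybpc3, higher, and without AC library 4 or 5 or Luc library 1 or 3 it was 1, Myot. The 13 cardiomyocyte genes outside the sarcomere summed to 15932 to 19320 CPM in AC hearts and 21882 to 27892 CPM in Luc hearts at 48 h, and 6 of 13 were lower. The fibroblast markers summed to 2085 to 3533 CPM in AC and 877 to 1700 CPM in Luc hearts, with 5 of 7 higher. Their part in the members' differences was not tested. The change of the AC minus Luc difference between times was tested as an interaction (limma). Between 4 and 24 h, 24 and 48 h and 4 and 48 h, 0, 280 and 362 of all genes were called higher and 1, 42 and 59 lower. No member was called in any of these, where 0, 7 and 7 members had an unadjusted p under 0.05. The lower values of 3 members at 48 h are therefore not shown to differ from the values at 4 or 24 h.

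**Figure D5:**
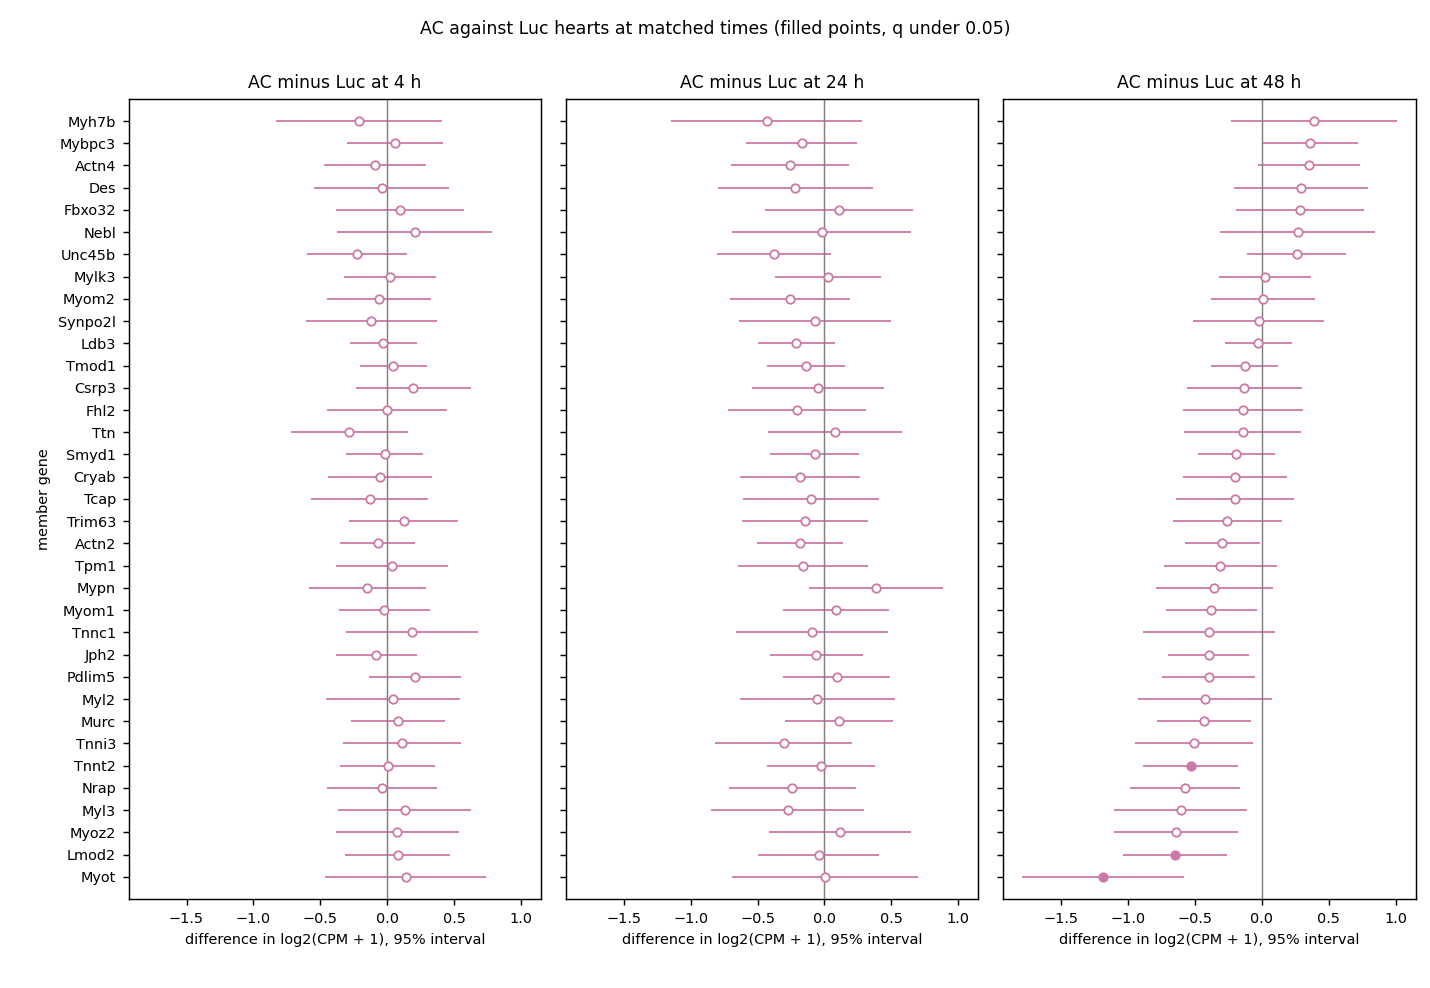
Difference between AC and Luc hearts for each member in log2(CPM + 1) at 4, 24 and 48 h, with 95% intervals from limma and filled points where the q value was under 0.05. Every interval includes 0 at 4 and 24 h, and at 48 h the filled points are Myot at -1.19, Lmod2 at -0.65 and Tnnt2 at -0.53.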

How the data were processed

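Total RNA of mouse left ventricles was measured by RNA sequencing, with 10 uninjected and 24 further libraries in separate tables. Per the study's methods the authors aligned reads with STAR to mm10, quantified RefSeq genes with the Partek E/M method and scaled by TMM. The deposited CPM values (read counts scaled to library size) were used as given, except that 1 was subtracted in the second table, where a CPM of 0 is listed as 1. The samples of the second table are not described in those methods, so that its own processing is known only from its values and the build, mm10. Whether counting used strand is not given in the sources used here. Of the first table's values under 1 CPM, 86.3% were whole multiples of 1 read (within 0.1), too few to recover reads for a count test.

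Genes averaging 1 CPM or more over a table were tested on log2(CPM + 1) with limma 3.58.1 in R 4.3.3, with a trend of the variance on the mean, all groups of a table in one model, and p values were adjusted over all genes of the table (Benjamini-Hochberg), with calls at a q value under 0.05. Results were tabulated with Python 3.11.15, pandas 2.3.3 and numpy 2.4.6 and drawn with matplotlib 3.10.9, and the fit was tested on simulated data. A group of 2 to 4 libraries limits the precision. Full statistics are given for 10 genes chosen by name (Tnnt2, Ttn, Myl2, Actn2, Des, Csrp3, Cryab, Trim63, Fbxo32 and Actn4) and for the 5 highest and 5 lowest called members. Others were named by role, and those outside this rule were chosen after their values were seen. The members and lists were chosen with earlier results of these data known. Alternatives were another pseudocount, no filter, no trend, array weights, median-ratio scaling, a replicate block, the compared groups alone, each library left out, no subtraction and, added later, removal of the length trend. All value columns were used. Of the 6 promoter stretches with a MEF2 match, 1 is not reported here.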

Additional observations from a re-analysis of the deposited data

Results flagged for a closer look

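Among 175 checks of single members in groups of 4 libraries, 10 had a library far from the others (Dixon's test), where chance gives about 1 in 20. Library G of the uninjected hearts at 24 h was high in Mybpc3 (1040 CPM), Mylk3 (161 CPM) and Fhl2 (592 CPM). Luc library 1 at 4 h was high in Tnnt2 (8669 CPM), and Luc library 4 at 48 h stood apart in Mybpc3 (1591 CPM) and Myh7b (43.0 CPM). AC library 3 at 4 h stood apart in Mylk3 (287 CPM). At 48 h AC library 1 stood apart in Mylk3 (207 CPM) and Unc45b (85.5 CPM), and AC library 4 in Tcap (347 CPM). In uninjected hearts the change from sham differed between 24 h and 4 h in 28 members, as tested by the direct comparison of the times.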

How the results depend on the processing

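No member called in one direction was called in the other under any alternative. At 24 h in uninjected hearts between 24 and 28 members were called under every alternative against 27, and compared with 4 h between 25 and 29 against 28. At 4 h in uninjected hearts array weights called 3 members, the replicate block 1 (Synpo2l), and leaving out 1 library 0 to 1, against 0. For Luc hearts at 4 h the 2 compared groups alone gave 2 and leaving out 1 library 0 to 1, against 0. For Luc hearts at 24 h array weights gave 4 and leaving out 1 library 4 to 9, against 8. For Luc hearts at 48 h removing the length trend, which was chosen after seeing the data, gave 20, the compared groups alone 4 and leaving out 1 library 5 to 16, against 13. For AC against Luc hearts at 48 h array weights gave 6 (3 higher, 3 lower), median-ratio scaling 12, the replicate block 1, removing the length trend 9, the compared groups alone 1 and leaving out 1 library 1 to 10, against 3. No filter on low values, or not subtracting 1, gave 2 there. The interaction between 48 and 24 h had 1 call with array weights and 0 to 1 with a library left out, and that between 48 and 4 h had 5 with array weights, 1 with median-ratio scaling and 0 to 2 with a library left out, against 0. The cause of these changes was not tested. For the 112 member values given with full statistics under the naming rule, 1611 recomputed values kept their side of the threshold, 21 gained and 69 lost a call, and 0 reversed. Over all 35 members in the same comparisons, 82 recomputed values gained and 95 lost a call. Same-numbered AC and Luc libraries did not deviate together throughout (correlations from -0.206 to 0.252). So few libraries cannot show whether or not the numbers pair them. With 1 sham library of the second table left out, the lone sham library is assumed to vary like the other groups. With 2 to 4 libraries per group, small differences could not be detected, and the depth of the second table is unknown.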
